A study of Mus musculus with 57 samples.

Results

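The mRNA levels of 10 genes that mark neutrophils were followed in mouse hearts after doxorubicin (Doxo) with or without nicotinamide mononucleotide (NMN): *S100a8*, *S100a9*, *Lcn2*, *Ngp*, *Ltf*, *Camp*, *Csf3r*, *Il1r2*, *Ly6g* and *Retnlg*. They were matched by symbol and all 10 were found among the 25416 genes of the acute count table and the 54658 genes of the chronic one. The genes were chosen by symbol as known neutrophil transcripts, with the group differences that these hearts had shown for them in view, so their group differences are given as a description and the counts of members past a threshold are no independent evidence.

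All 57 hearts came from male wild-type C57BL6/J mice and were profiled by bulk RNA sequencing. In the acute study, mice bought at 9 weeks of age received 1 intraperitoneal injection of Doxo at 20 mg/kg (Doxo, 13 hearts), the same with NMN at 180 mg/kg/day by intraperitoneal injection starting 5 days earlier (Doxo-NMN, 13 hearts), or saline (Ctrl, 14 hearts), and hearts were taken 5 days after Doxo. In the chronic study, mice aged 14 to 16 weeks received 5 injections of 4 mg/kg Doxo (Doxo, 6 hearts), the same with NMN at 500 mg/kg/day in drinking water (Doxo-NMN, 6 hearts), or PBS (Ctrl, 5 hearts), and hearts were taken at day 60. In both studies the paper reports deaths before collection in Doxo and in Doxo-NMN, so that hearts of survivors were sampled. Over its cohorts survival was higher in Doxo-NMN than in Doxo, though not significantly in the chronic study. Total gene counts ran from 32409622 to 52102850 per acute heart and from 17769886 to 23862287 per chronic heart. Cardiomyocyte markers (*Myh6*, *Tnnt2*, *Tnni3*, *Actc1* and *Myl2*) summed to between 25414 and 81104 CPM (counts scaled to the library size) in every heart, and 3 counts, the smallest amount read as a level here, corresponded to 0.0550 to 0.105 CPM in an acute heart and 0.124 to 0.172 CPM in a chronic one.

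Neutrophils are short-lived granulocytes that are made in the bone marrow under the control of granulocyte colony-stimulating factor, circulate in blood and enter injured tissue. *S100a8* and *S100a9* encode the subunits of calprotectin, the main cytosolic protein of neutrophils and also a product of monocytes. *Ngp*, *Ltf*, *Camp* and *Lcn2* encode specific granule proteins whose mRNAs are made mostly by precursors in the marrow, and *Lcn2* is in addition induced in many other cells during inflammation. *Csf3r*, *Ly6g* and *Il1r2* encode surface proteins: the receptor of granulocyte colony-stimulating factor, a neutrophil antigen and the decoy receptor of interleukin 1. *Retnlg* encodes a secreted resistin-like protein of neutrophils.

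Only *S100a8* and *S100a9* lie close together in the genome (build mm10, positions from GENCODE vM21). *S100a8* (chr3:90668978-90670035, plus strand) and *S100a9* (chr3:90692632-90695721, minus strand) lie 22597 bases apart. *Camp* (chr9:109847379-109849617), *Ngp* (chr9:110419747-110423012) and *Ltf* (chr9:111019271-111042767) lie on chromosome 9, with 570130 bases between *Camp* and *Ngp* and 596259 bases between *Ngp* and *Ltf*. *Lcn2* (chr2:32384633-32388252), *Csf3r* (chr4:126024550-126044440), *Ly6g* (chr15:75155240-75159126), *Retnlg* (chr16:48872621-48874496) and *Il1r2* (chr1:40074079-40125231) stand alone. *Il1r2* overlaps *Gm16894* on the opposite strand and *Gm37347* on its own, and whether the counting used strand is not given in the sources used here, so its reads cannot be fully assigned. *Ly6g* and *Retnlg* have close relatives in their families, and their counts are uncertain for that reason.

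The promoters of 4 members are shown because these genes are the most abundant (*S100a8*, *S100a9*, *Lcn2*) or have the largest fold change (*Ngp*), and because most members moved together from heart to heart. Each runs from 250 bases before to 50 bases after the RefSeq start site (GRCm38.p6, written in the direction of the gene). Capitals mark matches to TTNNGNAA on either strand, a motif of the C/EBP factors that act in granule gene expression.
S100a8 (chr3:90668821-90669120, plus strand): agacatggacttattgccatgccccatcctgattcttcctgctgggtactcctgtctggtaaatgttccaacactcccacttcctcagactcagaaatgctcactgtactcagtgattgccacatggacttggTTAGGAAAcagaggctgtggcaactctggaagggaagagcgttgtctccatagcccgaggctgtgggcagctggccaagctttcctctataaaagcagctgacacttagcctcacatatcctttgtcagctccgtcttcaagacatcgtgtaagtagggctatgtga
S100a9 (chr3:90695672-90695971, minus strand): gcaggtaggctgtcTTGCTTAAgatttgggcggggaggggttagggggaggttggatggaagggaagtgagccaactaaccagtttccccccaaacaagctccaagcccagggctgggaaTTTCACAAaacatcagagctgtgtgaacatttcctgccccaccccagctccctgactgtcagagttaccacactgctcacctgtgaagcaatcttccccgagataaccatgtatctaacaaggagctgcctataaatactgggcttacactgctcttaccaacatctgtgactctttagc
Lcn2 (chr2:32387690-32387989, minus strand): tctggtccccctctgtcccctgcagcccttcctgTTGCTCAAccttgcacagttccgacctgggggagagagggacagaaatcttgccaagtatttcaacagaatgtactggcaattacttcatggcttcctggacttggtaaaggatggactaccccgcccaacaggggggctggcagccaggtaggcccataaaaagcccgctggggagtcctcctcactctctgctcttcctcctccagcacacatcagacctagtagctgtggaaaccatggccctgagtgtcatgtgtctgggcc
Ngp (chr9:110419558-110419857, plus strand): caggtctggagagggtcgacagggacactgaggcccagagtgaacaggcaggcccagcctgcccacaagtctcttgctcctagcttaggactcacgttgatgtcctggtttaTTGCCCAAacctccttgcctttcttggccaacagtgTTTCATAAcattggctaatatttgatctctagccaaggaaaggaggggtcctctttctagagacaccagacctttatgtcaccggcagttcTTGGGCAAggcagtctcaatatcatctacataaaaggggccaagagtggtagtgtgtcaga

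Of the 10 members, 7 held a match in this window, with none found for *Csf3r*, *Camp* and *Il1r2*. The same letters occurred in 40.7% of 32851 mouse promoters of this length, so a match was common. *Ngp* had 3 matches and *S100a9* had 2, whereas *S100a8* and *Lcn2* had 1 each. GAGGAAG, an ETS motif, was found in *S100a8*, *Lcn2*, *Csf3r* and *Ly6g* and in 13.6% of promoters, and ACANNNTGT, a glucocorticoid receptor motif, in *S100a8* and *Lcn2* and in 6.8% of promoters. TTCNNNGAA, a STAT motif held by 8.3% of promoters, occurred in *Il1r2*, and the NF-kB motif searched, held by 1.6%, in no member. Matches on both strands were counted, and these letters describe the sequence without showing that a factor binds.

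In acute hearts, the median of every member but *Csf3r* and *Ly6g* was lowest in Ctrl, highest in Doxo and between them in Doxo-NMN. *Ly6g* had a median of 2 counts in both Doxo and Doxo-NMN. The Ctrl and Doxo-NMN medians were 1 and 2 counts for *Camp* and 3 and 4 counts for *Ltf*, so little is read from their order. Levels in Doxo were very uneven, and several of these differences were not called or depended on single hearts, as given below. *Lcn2* and *Il1r2* separated the groups more than most members, and *Csf3r* had the smallest fold changes of the 8 members tested. A level is given below as CPM on the effective library size of edgeR, and a fold change as log2 with its standard error (SE) from the edgeR fit over 14240 genes. *Ly6g* and *Camp* did not pass its filter on low counts. The other 8 passed it, and apart from *S100a9*, *Lcn2* and *Csf3r* largely through the Doxo and Doxo-NMN hearts, where they are high. A pair of Doxo hearts stood apart, replicate 6 within the Ctrl range and replicate 13 at the top of its group, and values without them are given after those of the members.

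Among the calprotectin subunits, *S100a8* ranged from 0.0877 to 1.41 CPM in Ctrl (median 0.361), from 0.748 to 107 CPM in Doxo (median 5.44) and from 0.609 to 11.1 CPM in Doxo-NMN (median 2.45). Of the Doxo hearts, 11 of 13 exceeded the highest Ctrl heart, as did 12 of 13 Doxo-NMN hearts, while the 2 treated groups overlapped along most of their range. Doxo vs. Ctrl gave 5.04 ± 0.62 (log2 fold change ± SE) for *S100a8*, against -1.84 ± 0.53 when Doxo-NMN was compared with Doxo, and 3.20 ± 0.59 when it was compared with Ctrl. *S100a9* followed it, with 0.190 to 2.09 CPM in Ctrl (median 0.780), 0.498 to 125 CPM in Doxo (median 6.09) and 1.99 to 12.6 CPM in Doxo-NMN (median 4.03). Its log2 fold changes were 4.36 ± 0.59, -1.63 ± 0.52 and 2.73 ± 0.56 in the same order. The higher end of both genes in Doxo was a single heart, Doxo replicate 13, and the next highest, Doxo replicate 8, reached 27.5 CPM of *S100a8* and 30.7 CPM of *S100a9*.

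Among the specific granule genes, *Lcn2*, which binds bacterial siderophores, ranged from 1.55 to 6.78 CPM in Ctrl (median 2.65), from 2.09 to 284 CPM in Doxo (median 89.7) and from 3.37 to 81.1 CPM in Doxo-NMN (median 9.5). In Doxo, 12 of 13 hearts lay above every Ctrl heart and above the median of Doxo-NMN, and 7 lay above the highest Doxo-NMN heart. The fitted log2 difference of *Lcn2* from Ctrl was 5.07 ± 0.56 in Doxo and 2.34 ± 0.51 in Doxo-NMN, and Doxo-NMN lay -2.73 ± 0.51 from Doxo. The highest Doxo-NMN heart, replicate 10, stood at 81.1 CPM, with the next at 18 CPM, and without it *Lcn2* in Doxo-NMN lay 1.68 from Ctrl and -3.40 from Doxo.

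*Ngp*, neutrophilic granule protein, ranged from 0 to 0.807 CPM in Ctrl (median 0.0361), from 0 to 57.5 CPM in Doxo (median 2.16) and from 0.0380 to 1.69 CPM in Doxo-NMN (median 0.227). All 13 Doxo-NMN hearts were below the median of Doxo, and 7 of 13 Doxo hearts were above the highest Doxo-NMN heart. On the log2 scale *Ngp* changed by 6.25 ± 0.96 between Ctrl and Doxo (7.50 without Ctrl replicate 4) and by -3.84 ± 0.83 between Doxo and Doxo-NMN (-2.54 without Doxo replicate 13). In Doxo-NMN vs. Ctrl it was 2.41 ± 0.98 and missed the threshold (adjusted p = 0.0637, edgeR quasi-likelihood test), and without Ctrl replicate 4, the only Ctrl heart above 0.114 CPM, it was 3.66 (adjusted p = 0.0134).

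*Ltf*, the iron-binding lactoferrin, ranged from 0 to 0.429 CPM in Ctrl (median 0.0797), from 0 to 30.2 CPM in Doxo (median 0.393) and from 0.0380 to 1.05 CPM in Doxo-NMN (median 0.103). Its groups overlapped more than those of *Ngp*, with 6 of 13 Doxo hearts above the highest Ctrl heart. Fold changes on the log2 scale were 4.87 ± 0.88 for Doxo against Ctrl and -3.60 ± 0.82 for Doxo-NMN against Doxo, whereas Doxo-NMN vs. Ctrl gave 1.26 ± 0.91 (adjusted p = 0.315, edgeR). Without Doxo replicate 13 the mean of *Ltf* in Doxo was 0.972 ± 1.42 CPM (SD, n = 12) instead of 3.22 ± 8.22 CPM (SD, n = 13), and the log2 fold changes were 3.14 for Doxo against Ctrl and -1.88 for Doxo-NMN against Doxo.

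*Camp*, the precursor of the antimicrobial peptide cathelicidin, was near the limit of these libraries. It had 0 to 17 counts in a Ctrl heart (median 1), 0 to 151 in a Doxo heart (median 6) and 0 to 21 in a Doxo-NMN heart (median 2), and 3 of 13 Doxo hearts exceeded the highest Ctrl heart. In a fit without the filter on low counts, *Camp* stood 2.55 ± 0.76 (log2) from Ctrl in Doxo and 0.25 ± 0.81 in Doxo-NMN, and Doxo-NMN stood -2.30 ± 0.76 from Doxo. The heart with 151 counts was again Doxo replicate 13, and the next highest reached 0.488 CPM against 4.25 CPM there.

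Among the receptors, *Il1r2* separated the groups about as far as *Lcn2* did. It ranged from 0 to 0.202 CPM in Ctrl (median 0.110), from 0 to 13.6 CPM in Doxo (median 2.0) and from 0.114 to 1.26 CPM in Doxo-NMN (median 0.341). In Doxo, 12 of 13 hearts lay above every Ctrl heart, and all 13 Doxo-NMN hearts lay below the median of Doxo. Relative to Ctrl, *Il1r2* was 4.62 ± 0.55 higher in Doxo and 2.11 ± 0.55 higher in Doxo-NMN on the log2 scale, and Doxo-NMN vs. Doxo gave -2.51 ± 0.49. Other genes of the interleukin 1 system moved less in Doxo vs. Ctrl, and of 5 tested, 2 were higher in Doxo vs. Ctrl: *Il1b*, the cytokine itself (1.61 ± 0.55), and *Il1r1*, its signalling receptor (0.78 ± 0.18). Both were lower in Doxo-NMN vs. Doxo, with log2 values of -2.80 ± 0.60 for *Il1b* and -0.96 ± 0.18 for *Il1r1*.

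*Csf3r* was measurable in every heart and nearly level. It ranged from 0.675 to 2.53 CPM in Ctrl (median 1.18), from 0.495 to 5.94 CPM in Doxo (median 1.47) and from 0.706 to 2.47 CPM in Doxo-NMN (median 1.81). Only 3 Doxo hearts, replicates 4, 5 and 13, and no Doxo-NMN heart exceeded the highest Ctrl heart. Doxo vs. Ctrl gave a log2 value of 0.63 ± 0.26 (adjusted p = 0.0313, edgeR), a call that was lost without Doxo replicate 5 (0.38, adjusted p = 0.154) and that turned to -0.11 among the hearts with at least 100 CPM of the atrial gene *Myl4*. It was also lost without Ctrl replicate 1 (0.58, adjusted p = 0.0505), Ctrl replicate 5 (0.56, adjusted p = 0.0550), Doxo replicate 4 (0.53, adjusted p = 0.0728) or Doxo replicate 13 (0.51, adjusted p = 0.0777). Doxo-NMN vs. Doxo gave -0.29 ± 0.26 (adjusted p = 0.358) and Doxo-NMN vs. Ctrl 0.34 ± 0.26 (adjusted p = 0.351).

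*Ly6g*, the antigen by which mouse neutrophils are usually sorted, was at 0 counts in all 14 Ctrl hearts. It had 2 to 26 counts in 8 of 13 Doxo hearts and 2 to 18 counts in 8 of 13 Doxo-NMN hearts, and 0 in the others. A total of 3 counts over the 14 Ctrl hearts would be 0.00528 CPM, against which the Doxo mean of 0.116 ± 0.202 CPM (SD, n = 13) was at least 22-fold higher and the Doxo-NMN mean of 0.0888 ± 0.119 CPM (SD, n = 13) at least 16.8-fold higher. All 16 hearts with a count had an even number. Read as counts divided by 2, the bounds were 11-fold and 8.41-fold. Replicate 13 carried much of each bound, at 0.731 CPM among the Doxo hearts and 0.411 CPM among the Doxo-NMN hearts, and without it they were 12.3-fold and 11.7-fold (6.14-fold and 5.87-fold for counts divided by 2). Between Doxo-NMN and Doxo, the log2 fold change without the filter was -0.36 ± 0.79 (adjusted p = 0.758, edgeR), so no difference was detectable at this depth.

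*Retnlg* ranged from 0.0461 to 0.391 CPM in Ctrl (median 0.163), from 0.150 to 22.6 CPM in Doxo (median 1.83) and from 0.228 to 4.14 CPM in Doxo-NMN (median 1.11). In both treated groups 12 of 13 hearts were above every Ctrl heart. *Retnlg* rose by 4.48 ± 0.57 (log2) from Ctrl to Doxo, Doxo-NMN vs. Ctrl gave 3.24 ± 0.56, and Doxo-NMN vs. Doxo gave -1.24 ± 0.49. The Doxo and Doxo-NMN hearts overlapped broadly, with 3 of 13 Doxo hearts above the highest Doxo-NMN heart.

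**Figure D1:**
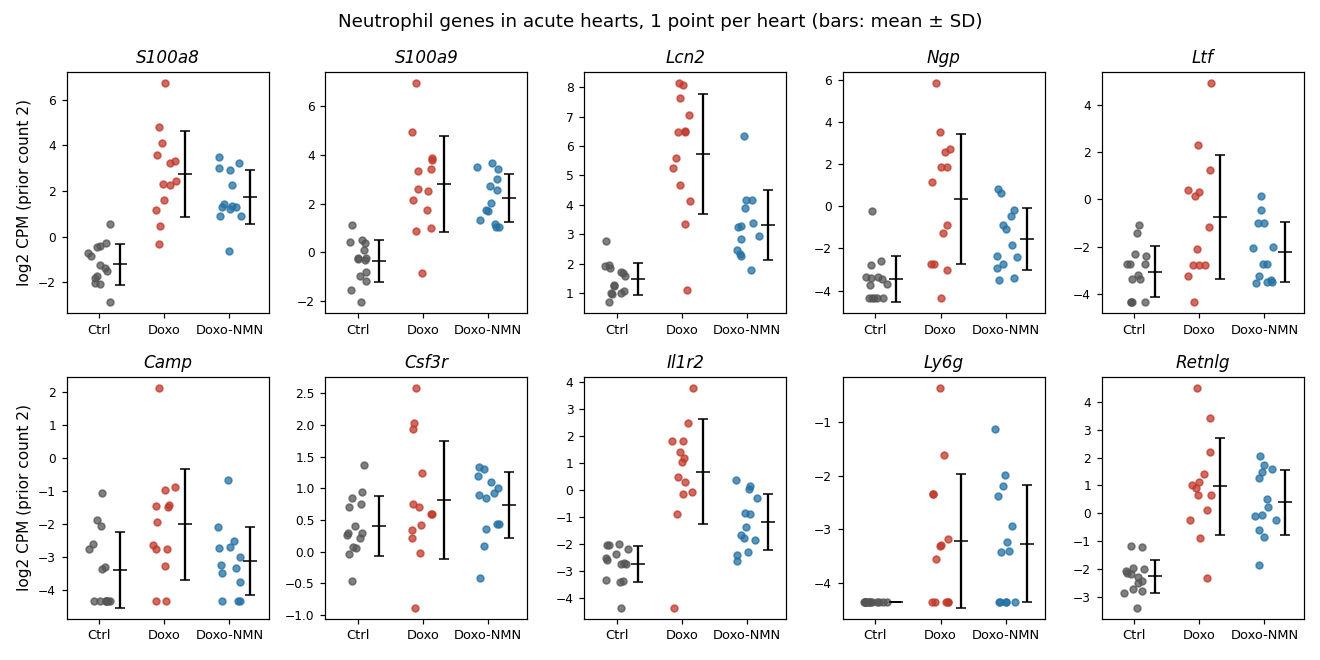
Level of each neutrophil gene in the acute hearts (y axis, log2 CPM with a prior count of 2; each panel has its own scale) in Ctrl (14 hearts), Doxo (13) and Doxo-NMN (13). Each point is a heart and the bar beside it the mean ± SD. In the *Lcn2* panel 12 of 13 Doxo hearts lie above every Ctrl heart, while *Csf3r* overlaps throughout and *Ly6g* is at 0 counts in all Ctrl hearts.

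Of the 8 members tested, 8 were called higher in Doxo vs. Ctrl (adjusted p below 0.05 with at least a 1.5-fold difference), where 14.7% of all 14240 genes were called higher and 15.4% lower. In Doxo-NMN vs. Doxo, 7 were called lower, against 8.88% of all genes (8.17% were called higher), and in Doxo-NMN vs. Ctrl 5 were called higher, against 3.31% (3.79% lower). Since the members were chosen with these results known, nothing is read from the counts. The comparisons share hearts (Doxo enters 2 of them), so that their values are not independent of each other. A bulk level cannot tell apart fewer neutrophils from less of each mRNA per neutrophil.

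Single hearts set part of these values. Doxo replicate 6 had the lowest Doxo value, or shared a value of 0, for every member except *Csf3r*, and lay inside the Ctrl range of all members. Its red cell genes summed to 339 CPM, against 1.25 to 3.85 CPM in the other 12 Doxo hearts and 439 to 4319 CPM in Ctrl. Doxo replicate 13 was the highest of its group for every member but *Lcn2* and *Csf3r*. Without replicate 13, the log2 difference of Doxo from Ctrl was 4.09 for *S100a8*, 3.33 for *S100a9*, 4.85 for *Lcn2*, 4.95 for *Ngp*, 3.77 for *Retnlg* and 4.09 for *Il1r2*, each still called. Without replicate 6 these values were 5.15, 4.47, 5.19, 6.36, 4.59 and 4.74. Also without replicate 13, the log2 fold change in Doxo-NMN vs. Doxo was -0.90 for *S100a8* (adjusted p = 0.0798, edgeR), -0.60 for *S100a9* (adjusted p = 0.229) and -0.53 for *Retnlg* (adjusted p = 0.300), so that 4 members remained called: *Lcn2*, *Ngp*, *Ltf* and *Il1r2*. Without replicate 8 the *Retnlg* value was -1.02 (adjusted p = 0.0747). With replicates 6 and 13 both left out, a choice made after seeing the data, 7 members were called higher in Doxo vs. Ctrl (15.6% of all genes in the same fit), 5 lower in Doxo-NMN vs. Doxo (9.64%) and 6 higher in Doxo-NMN vs. Ctrl (3.47%).

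**Figure D2:**
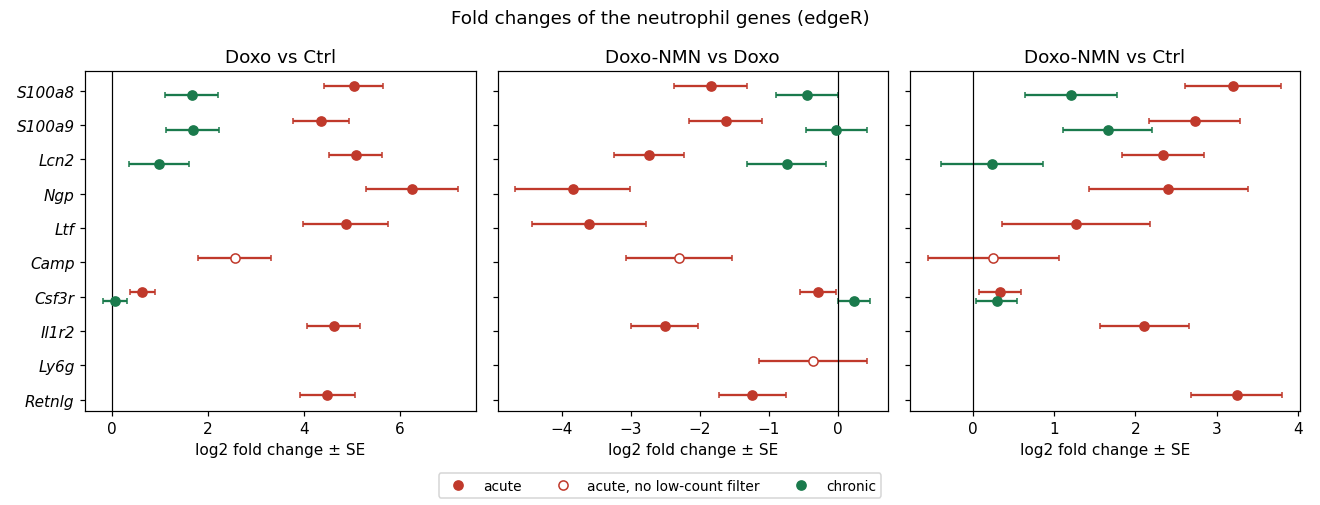
Log2 fold change ± SE (x axis) of each neutrophil gene in the 3 comparisons, acute (red) and chronic (green). Open symbols are members that failed the filter on low counts in the acute table, taken from a fit without it; *Ly6g* is not drawn against Ctrl, where it had 0 counts. All acute points lie right of 0 in Doxo vs. Ctrl, and *Ngp* and *Ltf* lie farthest left in Doxo-NMN vs. Doxo, at -3.84 and -3.60.

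Compared per kilobase of exon, the order of the median levels differed between the groups. In Ctrl the highest were *S100a9* (1.49 CPM per kilobase), *Lcn2* (1.01), *S100a8* (0.520), *Csf3r* (0.327) and *Retnlg* (0.276), and the other 5 were at or under 0.0579. In Doxo *Lcn2* led (34.2), followed by *S100a9* (11.7), *S100a8* (7.84), *Retnlg* (3.08), *Ngp* (1.77), *Il1r2* (1.05), *Csf3r* (0.406), *Camp* (0.277), *Ltf* (0.114) and *Ly6g* (0.0556). In Doxo-NMN the order began with *S100a9* (7.72), *Lcn2* (3.62) and *S100a8* (3.54). *Csf3r* thus stood above *Retnlg*, *Ngp* and *Il1r2* in Ctrl and below all 3 in Doxo. Neighbours in each order overlapped in their range over hearts.

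Only *S100a9* and *Retnlg*, of the 7 members compared, kept a close proportion to *S100a8* within a Doxo heart. The CPM of *S100a9* was 0.667 to 1.34 times that of *S100a8* over the 13 Doxo hearts, and *Retnlg* was 0.200 to 0.389 times *S100a8*, although *S100a8* itself spanned 0.748 to 107 CPM. *Lcn2* did not keep such a proportion and ranged from 2.15 to 36.0 times *S100a8* in Doxo (median 7.14) and from 1.02 to 7.32 times in Doxo-NMN (median 2.92). *Ngp* was 0 to 0.539 times *S100a8* in Doxo (median 0.365) and 0.0185 to 0.607 times in Doxo-NMN (median 0.0657). *Il1r2* had medians of 0.262 (range 0 to 0.877) and 0.108 times *S100a8* in these groups. In Doxo *Ltf* was 0 to 0.283 times and *Csf3r* 0.0377 to 1.73 times *S100a8*. These ratios are a description with no test, and in Ctrl, where counts were few, they scattered more (*S100a9* from 0.50 to 4.5 times *S100a8*).

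Within a group, the relation of *S100a8* to the other members was tested over hearts, on log2 CPM, as 26 relations (*Ly6g* at 0 in Ctrl gave none). Over the 13 Doxo hearts, *S100a9* gave Pearson r = 0.992 and Spearman rho = 0.984, *Retnlg* 0.982 and 0.973, and *Ngp* 0.944 and 0.984. For these 3 genes each permutation p was 1e-05, the smallest that 100000 resamples can give (adjusted p = 4.33e-05 for r and 6.5e-05 for rho), and r was 0.987, 0.963 and 0.903 without replicates 6 and 13. *Lcn2* was less close, with r = 0.787 (permutation p = 0.00144, adjusted p = 0.0034) and rho = 0.835 (permutation p = 0.0007, adjusted p = 0.00182), and with r = 0.652 without the 2 hearts. *Csf3r* had r = 0.642 (permutation p = 0.0179, adjusted p = 0.0291) and rho = 0.610 (permutation p = 0.0304, adjusted p = 0.0494). Every pair shares a library and its depth.

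Over the 13 Doxo-NMN hearts the closest were *Retnlg* (r = 0.928, rho = 0.852), *Il1r2* (r = 0.927, rho = 0.951) and *S100a9* (r = 0.902, rho = 0.945). Their permutation p values were at most 2e-05 for r (adjusted p at most 7.43e-05) and at most 0.00036 for rho (adjusted p at most 0.00117). *Camp* gave r = 0.00 in Doxo-NMN (permutation p = 0.998, adjusted p = 0.998) and rho = 0.182 (permutation p = 0.551, adjusted p = 0.580), at 0 to 21 counts a heart. In the 14 Ctrl hearts *Ngp* (r = 0.669, permutation p = 0.00745, adjusted p = 0.0138) and *S100a9* (r = 0.575, permutation p = 0.0317, adjusted p = 0.0484) passed for r but not for rho (adjusted p = 0.0806 and 0.0548), and without Ctrl replicates 2 and 4 the r was 0.329 and 0.337, so that both relations rest on those hearts.

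**Figure D3:**
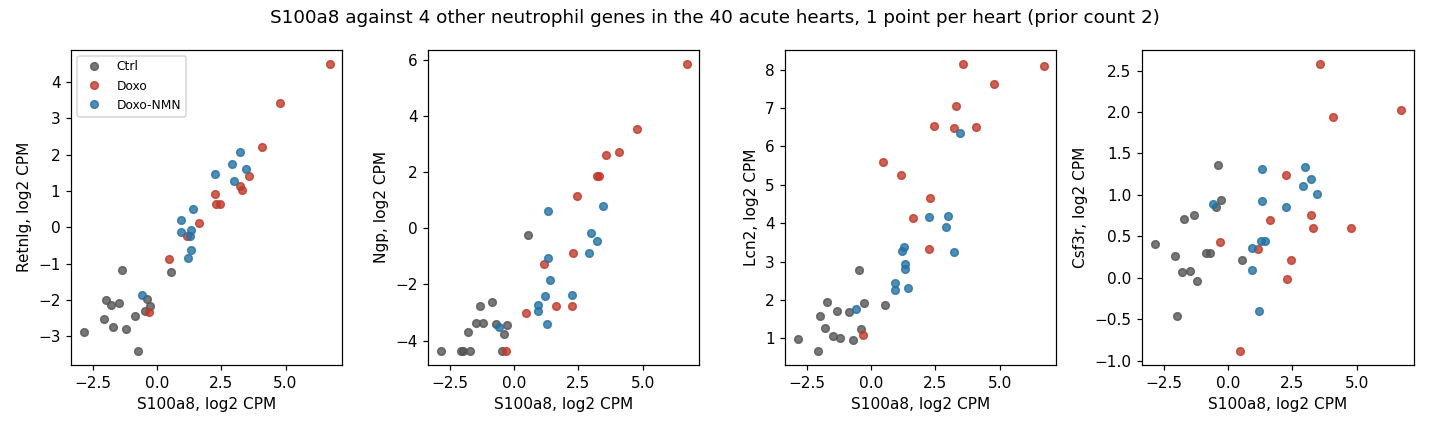
Level of *Retnlg*, *Ngp*, *Lcn2* and *Csf3r* (y axes, log2 CPM with a prior count of 2) against *S100a8* (x axes, same scale) in the 40 acute hearts, coloured by group. *Retnlg* follows *S100a8* in Doxo (r = 0.982), *Lcn2* follows it less closely (r = 0.787), and *Csf3r* has the lowest r of the genes shown (r = 0.642).

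Genes outside the list whose pattern over hearts was nearest to the 3 most abundant members were found from log2 CPM centred within each group, over 40 acute hearts and 14232 genes, as a description. Nearest to *S100a8* were *Cd177* (r = 0.882), *Mmp8* (r = 0.857), *Ifitm6* (r = 0.842) and *Slfn4* (r = 0.788). Those nearest to *S100a9* were the same 4 genes, with r from 0.816 to 0.858. *Cd177* is a neutrophil surface protein and *Mmp8* the neutrophil collagenase. Those nearest to *Lcn2* were *Ahcy* (r = 0.927), which hydrolyses S-adenosylhomocysteine, *Mgst1* (r = 0.911), a microsomal glutathione transferase, *Tmem38b* (r = 0.907) and *Mt2* (r = 0.891), a metallothionein. The lists for *Lcn2* and for the calprotectin subunits had 0 genes in common, but each holds only 4 of 14232 genes, so nothing is read from this. On the same scale *S100a8* and *S100a9* had r = 0.908, *Ngp* and *Ltf* r = 0.888, *Lcn2* and *Il1r2* r = 0.842 and *Lcn2* and *S100a8* r = 0.752.

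Other neutrophil genes were read from lists that were likewise made with earlier results known. Of 10 late granule genes, 6 were tested, and 5 of these were higher in Doxo vs. Ctrl and 4 lower in Doxo-NMN vs. Doxo, with medians of 3.13 and -1.03 (over all tested genes the medians were -0.00157 and -0.000827). The Doxo vs. Ctrl log2 fold changes were 7.0 ± 0.64 for *Chil3*, a chitinase-like protein also made by macrophages, 5.58 ± 0.81 for *Cd177*, 4.35 ± 0.60 for *Mmp8* and 1.90 ± 0.32 for *Pglyrp1*, a peptidoglycan recognition protein. In Doxo-NMN vs. Doxo, *Chil3* (-2.0 ± 0.48), *Cd177* (-1.53 ± 0.60) and *Pglyrp1* (-1.0 ± 0.31) were lower, and *Mmp8* was at -0.86 ± 0.50 (adjusted p = 0.149, edgeR). Of 12 genes listed for mature neutrophils, not all of them for surface proteins, 10 were tested. Of these, 8 were higher in Doxo vs. Ctrl and 5 lower in Doxo-NMN vs. Doxo, with medians of 2.04 and -1.05. They included the C-type lectins *Clec4e* (4.91 ± 0.62 and -2.96 ± 0.54) and *Clec4d* (3.0 ± 0.37 and -2.50 ± 0.37), the formyl peptide receptor *Fpr2* (3.60 ± 0.60 and -2.45 ± 0.57) and *Hdc*, which makes histamine (1.74 ± 0.32 and -1.81 ± 0.32).

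None of the 5 genes listed for early marrow stages, not all of them for primary granule proteins, passed the filter, and *Ms4a3* had 0 counts in all 57 hearts. *Elane*, neutrophil elastase, and *Mpo*, myeloperoxidase, had at most 6 counts in any acute heart and 0 counts in 8 of 13 Doxo hearts. *Prtn3* had a median of 7 counts in Doxo and 1.5 in Ctrl. In Doxo vs. Ctrl *Cyba* and *Ncf4*, which encode subunits of the phagocyte NADPH oxidase of neutrophils and macrophages, were at -0.19 ± 0.06 and 0.35 ± 0.24 (adjusted p = 0.00788 and 0.185, edgeR), and neither reached a 1.5-fold difference. In Doxo-NMN vs. Doxo *Ncf4* was lower (-0.78 ± 0.24).

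Of 10 growth factor, chemokine and adhesion genes that act on neutrophils, 8 were tested, with 6 higher and 2 lower in Doxo vs. Ctrl (median 2.20) and 6 lower and 1 higher in Doxo-NMN vs. Doxo (median -2.52). The neutrophil chemokine *Cxcl2* changed by 5.55 ± 0.76 and -5.55 ± 0.78, and *Cxcl1* by 3.77 ± 0.53 and -3.64 ± 0.54. *Selp*, P-selectin, changed by 4.43 ± 0.62 and -4.17 ± 0.63, and *Icam1*, an endothelial ligand of leukocyte integrins, by 1.17 ± 0.21 and -1.14 ± 0.21. The 2 genes that were lower in Doxo vs. Ctrl are not among those named. The summed level of all 10 did not follow the named genes. Its medians were 195 CPM in Ctrl, 156 CPM in Doxo (range 118 to 314) and 204 CPM in Doxo-NMN. In Doxo-NMN vs. Ctrl, 0 of the 8 were called (edgeR, 1 lower at an unadjusted p under 0.05), with a median of 0.02, where 3.31% of all genes were called higher and 3.79% lower. The 8 acute phase and STAT3 target genes were all higher in Doxo vs. Ctrl (median 2.24), Doxo-NMN vs. Doxo had 7 of them lower (median -1.75), and 4 were higher in Doxo-NMN vs. Ctrl (median 0.61). *Serpina3n*, a protease inhibitor, changed by 4.84 ± 0.51 and -2.59 ± 0.47, *Socs3*, the feedback inhibitor of STAT3, by 4.30 ± 0.46 and -3.74 ± 0.46, *Osmr*, the oncostatin M receptor, by 2.18 ± 0.25 and -1.81 ± 0.25, and the C/EBP factor *Cebpd* by 2.31 ± 0.25 and -0.99 ± 0.24. Of 5 receptors of calprotectin and lipocalin 2, *Ager*, the receptor for advanced glycation end products, was the 1 that was called, at 2.90 ± 0.33 and -1.86 ± 0.31. Of 5 glucocorticoid-induced genes, 3 were higher in Doxo vs. Ctrl and 2 lower in Doxo-NMN vs. Doxo.

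Markers of other cells moved with the groups as well, and their part in the values above was not tested. Red cell genes were lower in Doxo vs. Ctrl for 7 of 7 (median log2 fold change -5.67), and their summed level was 439 to 4319 CPM in Ctrl, 1.25 to 339 CPM in Doxo and 0.209 to 2.81 CPM in Doxo-NMN. In Doxo-NMN vs. Doxo 5 of 7 were lower (median -4.39). Red cell and neutrophil transcripts thus moved in opposite directions from Ctrl to Doxo. Among Doxo hearts only replicate 6 reached 339 CPM of red cell genes. All other Doxo hearts had 1.25 to 3.85 CPM and overlapped the Doxo-NMN range. Group medians of this sum were 2.39 CPM (Doxo) and 1.42 CPM (Doxo-NMN). Red cell fold changes without replicate 6 are not given here, so no shared direction is read from Doxo to Doxo-NMN. Of 3 monocyte genes, *Ly6c2* (1.03 ± 0.12) and *Plac8* (2.36 ± 0.45), which neutrophils also express, were higher and *Ccr2* (-1.78 ± 0.29) lower in Doxo vs. Ctrl, with a summed level of 6.46 to 11.1 CPM in Ctrl, 7.45 to 17.2 CPM in Doxo and 6.27 to 10.6 CPM in Doxo-NMN. Of 5 macrophage genes, *Csf1r* (-1.07 ± 0.13) and *Adgre1* (-1.44 ± 0.21) were lower in Doxo vs. Ctrl and 0 were higher. None of 4 platelet genes was called in any acute comparison (edgeR), and 1 was lower in Doxo vs. Ctrl at an unadjusted p under 0.05. No T cell gene passed the filter, and of the B cell (2 tested) and the eosinophil and mast cell genes (3 tested), 2 in each list were lower in Doxo vs. Ctrl. Of 5 atrial genes 1 was lower, and 8 of 14 Ctrl, 5 of 13 Doxo and 4 of 13 Doxo-NMN hearts had at least 100 CPM of *Myl4*. Within the hearts under and within those at or above that level, 8 and 7 members were called higher in Doxo vs. Ctrl (15.6% and 14% of all genes in those fits), 6 and 5 lower in Doxo-NMN vs. Doxo (8.81% and 7.58%) and 3 and 3 higher in Doxo-NMN vs. Ctrl (2.17% and 2.03%).

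In chronic hearts the same genes were low in all groups and 4 of the 10 passed the filter: *S100a8*, *S100a9*, *Lcn2* and *Csf3r*. None was called in any comparison at an adjusted p under 0.05 by edgeR or by DESeq2, where edgeR called 0.0602% of 14960 genes for Doxo against Ctrl, 0% for the 2 Doxo groups and 0.0401% for Doxo-NMN against Ctrl. At an unadjusted p under 0.05, 1174, 441 and 707 genes passed in these comparisons, and of the members 2 (*S100a8* and *S100a9*), 0 and again these 2.

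*S100a8* was at 0.327, 0.0484, 0.298, 0.160 and 0.170 CPM in the 5 Ctrl hearts, at 0.334 to 1.49 CPM in the 6 Doxo hearts (median 0.521) and at 0.171 to 1.12 CPM in the 6 Doxo-NMN hearts (median 0.328). The Doxo hearts were all above the Ctrl hearts, with 7 to 26 counts against 1 to 6, while 3 of 6 Doxo-NMN hearts were. The margin was narrow (lowest Doxo heart 0.334 CPM, highest Ctrl heart 0.327 CPM), and how many of all genes separate in this way was not counted. On the log2 scale *S100a8* differed by 1.65 ± 0.55 for Doxo against Ctrl (unadjusted p = 0.00731, adjusted p = 0.512, edgeR), -0.45 ± 0.45 in Doxo-NMN vs. Doxo and 1.21 ± 0.56 in Doxo-NMN vs. Ctrl.

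*S100a9* was at 0.381, 0.194, 0.447, 0.213 and 0.509 CPM in Ctrl, 0.191 to 3.22 CPM in Doxo (median 0.804) and 0.556 to 1.74 CPM in Doxo-NMN (median 1.23). All 6 Doxo-NMN hearts and 5 of 6 Doxo hearts were above every Ctrl heart. For *S100a9* these differences were 1.68 ± 0.55 in Doxo vs. Ctrl (adjusted p = 0.512, edgeR), -0.02 ± 0.45 in Doxo-NMN vs. Doxo and 1.66 ± 0.55 in Doxo-NMN vs. Ctrl (adjusted p = 0.876). The calprotectin genes thus missed the threshold over all genes in both comparisons with Ctrl, at 1 to 56 counts a heart.

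*Lcn2* was at 2.83, 1.5, 1.59, 1.22 and 1.30 CPM in Ctrl, 0.935 to 14 CPM in Doxo (median 1.32) and 1.15 to 4.14 CPM in Doxo-NMN (median 1.61). A single heart stood out in each treated group, Doxo replicate 2 at 14 CPM and Doxo-NMN replicate 1 at 4.14 CPM. Doxo vs. Ctrl gave a log2 value of 0.97 ± 0.62 with all hearts and -0.42 without Doxo replicate 2, and in Doxo-NMN vs. Doxo -0.74 ± 0.57 and 0.65 without that heart. *Csf3r* was at 2.94, 1.74, 1.54, 1.70 and 1.24 CPM in Ctrl, 1.16 to 2.48 CPM in Doxo and 1.45 to 3.12 CPM in Doxo-NMN, and Doxo vs. Ctrl gave 0.06 ± 0.25.

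The other 6 members were at the limit of detection. *Ly6g* had 0 counts in all Ctrl and Doxo hearts and 1 count in 2 of 6 Doxo-NMN hearts. *Camp* had at most 3 counts and *Ltf* at most 6 in any chronic heart. *Ngp* had 0 to 5 counts, *Retnlg* 0 to 16 and *Il1r2* 0 to 16, and the highest of each was Doxo replicate 2. The same heart had the lowest summed level of red cell genes among the chronic Doxo hearts (16.2 CPM) and the highest of the acute phase genes (144 CPM, against 58.2 to 66.9 CPM in the other 5 Doxo hearts). With Doxo replicate 2 and Doxo-NMN replicate 1 both left out, a choice made after seeing the data, 3 members passed the filter and 0 were called (edgeR), with *S100a9* alone at an unadjusted p under 0.05 in both comparisons with Ctrl.

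**Figure D4:**
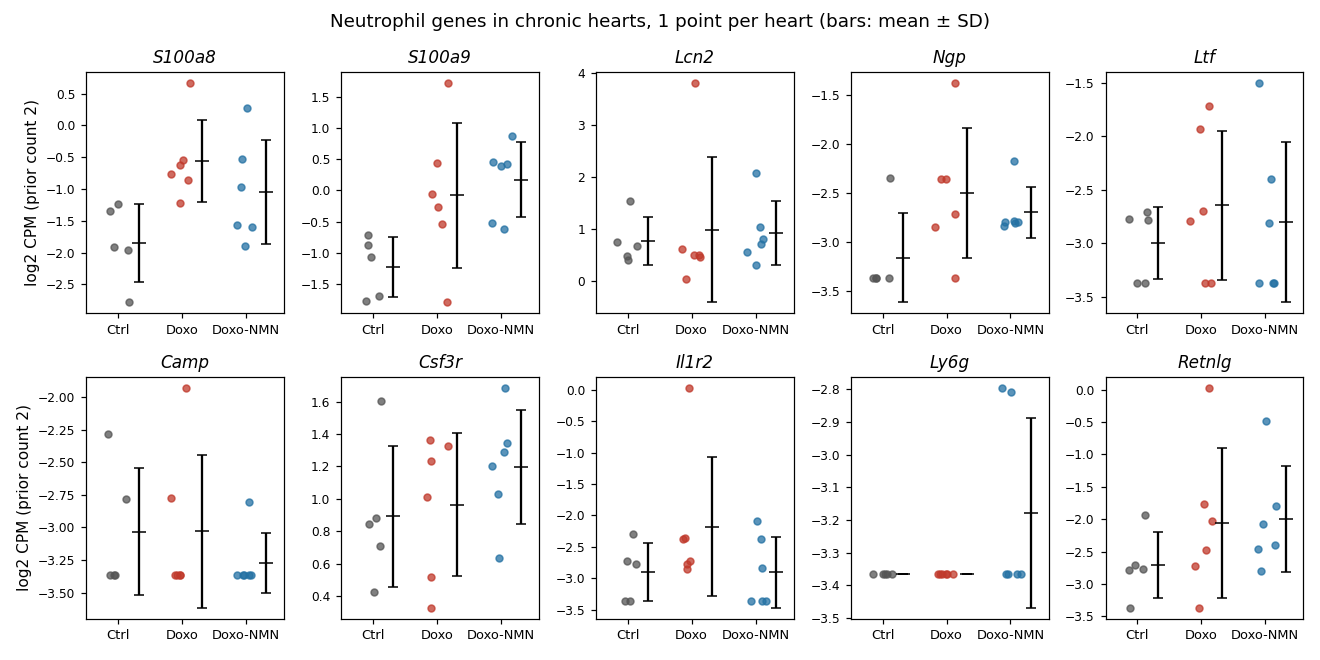
Level of each neutrophil gene in the chronic hearts (y axis, log2 CPM with a prior count of 2; each panel has its own scale) in Ctrl (5 hearts), Doxo (6) and Doxo-NMN (6). Each point is a heart and the bar beside it the mean ± SD. Doxo replicate 2 is the highest point in the *Lcn2* panel (14 CPM). The S100a8 values of the 6 Doxo hearts (0.334 to 1.49 CPM) lie narrowly above those of the 5 Ctrl hearts (at most 0.327 CPM).

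The acute and chronic effects were compared directly as the difference of log2 fold changes over 15152 genes found in both tables. For Doxo vs. Ctrl, *Lcn2* differed by 4.12 ± 1.04 (acute minus chronic, adjusted p = 0.00457, edgeR), while 23.6% of all genes differed in either direction. *S100a8* (3.38 ± 1.52, unadjusted p = 0.0302, adjusted p = 0.0952) and *S100a9* (2.68 ± 1.27, unadjusted p = 0.0400, adjusted p = 0.115) missed the threshold (edgeR). So did the other 6 members tested, whose SE ran from 0.45 for *Csf3r* to 4.83 for *Ngp*. For Doxo-NMN vs. Doxo, none of the 9 members differed past the threshold (edgeR), 6.09% of all genes did, and 1 member, *Lcn2*, passed at an unadjusted p under 0.05 (-2.01 ± 0.94, unadjusted p = 0.0366, adjusted p = 0.161). The studies differed in dose schedule, age, route and dose of NMN, time of collection and sequencing site, which cannot be told apart.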

How the data were processed

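Hearts of 57 mice were profiled by poly(A) RNA sequencing with single-end reads. The authors deposited raw counts per gene symbol, made with STAR 2.7.3a and featureCounts 2.0.0 on build mm10 (submitters' processing notes). The strand setting is not given in the sources used here. No read was counted for 3617 of 25416 genes in the acute data and for 21664 of 54658 in the chronic data. Small acute counts were mostly even (88.5% of the members' counts from 1 to 20, against 32.9% in the chronic table), so that counts divided by 2 were an alternative.

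Genes passing filterByExpr were fitted per study with edgeR 4.0.16 (R 4.3.3) on TMM-scaled counts, with the 3 groups in 1 quasi-likelihood fit, F-tests and Benjamini-Hochberg adjustment over all genes tested. Acute calls needed an adjusted p below 0.05 and a 1.5-fold difference, chronic calls the adjusted p alone. SE values are the log2 fold change over the root of F. Members failing the filter were taken from a fit without it. The acute and chronic effects were compared as an interaction over all hearts. CPM used TMM library sizes and log2 CPM a prior count of 2. Correlations used two-sided permutation tests with 100000 resamples (scipy 1.17.1). Scripts were tested on simulated counts. Floors of 3 counts cover counting error only.

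Groups and replicate numbers came from the sample titles, 1 heart per mouse. All 10 members were named, and of each other list up to 4 genes with the smallest adjusted p in acute Doxo vs. Ctrl and any defining marker at 0. Alternatives were no filter, RLE factors, DESeq2 1.42.0, robust dispersions, a replicate block, only the groups compared, hearts on either side of 100 CPM of *Myl4*, no fold change limit, and each heart left out. The members and lists were chosen with earlier results of these data known. One further gene is not reported here.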

Additional observations from a re-analysis of the deposited data

Results flagged for a closer look

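Dixon's criterion was applied to 18 sets of chronic hearts (a member in a group, with more than 3 counts in some heart). It tests the highest and the lowest heart for distance from the others. Chance passes it in about 1 of 20 sets where values are independent and normal. Here the sets share hearts and many counts are small, so that rate is no measure for them. A total of 10 sets passed. Of these, 6 were the same heart, chronic Doxo replicate 2, the highest of its group at 1.49 CPM of *S100a8*, 3.22 CPM of *S100a9*, 13.96 CPM of *Lcn2*, 0.287 CPM of *Ngp*, 0.919 CPM of *Retnlg* and 0.919 CPM of *Il1r2*. The *Ngp* value is 5 counts. Chronic Doxo-NMN replicate 1 stood apart for *Lcn2* (4.14 CPM) and *Retnlg* (0.620 CPM), chronic Doxo-NMN replicate 5 for *Ltf* (0.256 CPM) and chronic Ctrl replicate 1 for *Lcn2* (2.83 CPM).

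The effect of Doxo on *Lcn2* differed between the acute and the chronic study by 4.12 on the log2 scale (acute minus chronic, adjusted p = 0.00457, edgeR quasi-likelihood test of the interaction).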

How the results depend on the processing

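Over the alternatives, the log2 values and correlations of single members were counted as kept 1495 times. A call was lost 24 times and gained 5 times, the direction changed 21 times, and the cause of these changes was not tested. A kept log2 value had the same direction and the same side of the threshold. For correlations only the direction was compared, which was kept 24 times and changed 2 times. A kept correlation could thus be weaker, as for *Ngp* in Ctrl (r = 0.669 and 0.329). Fitting only the groups compared called 4 members higher in acute Doxo vs. Ctrl, where 5 passed the filter and 1955 of 13885 genes were called higher. Among hearts under 100 CPM of *Myl4*, 3 members were called higher in acute Doxo-NMN vs. Ctrl (2.17% of all genes). Hearts with at least 100 CPM also gave 3 (2.03% of all genes). In these hearts *Csf3r* was at -0.11 against Ctrl in Doxo and -0.35 in Doxo-NMN, and *Ltf* at -0.83 in Doxo-NMN. Without chronic Doxo replicate 2 and Doxo-NMN replicate 1, an alternative added after seeing the data, *Lcn2* was at -0.42 and *Csf3r* at -0.0097 in Doxo vs. Ctrl, *S100a9* at 0.55 and *Lcn2* at 0.28 in Doxo-NMN vs. Doxo, and *Lcn2* at -0.13 in Doxo-NMN vs. Ctrl. Leaving out single hearts moved the members called lower in acute Doxo-NMN vs. Doxo from 4 to 7 (4 without Doxo replicate 13, where 1230 of 14300 genes were called lower). In chronic hearts it moved *Lcn2* from -0.42 to 1.23 and *Csf3r* from -0.043 to 0.29 in Doxo vs. Ctrl, *S100a9* from -0.25 to 0.60 and *Lcn2* from -1.11 to 0.65 in Doxo-NMN vs. Doxo, and *Lcn2* from -0.13 to 0.49 in Doxo-NMN vs. Ctrl. Without the 2 hearts farthest from the median of *S100a8*, r was -0.079 for *Retnlg* in Ctrl and -0.074 for *Camp* in Doxo-NMN. DESeq2 called 8 members higher in acute Doxo vs. Ctrl (2108 of 14240 genes) and 7 lower in Doxo-NMN vs. Doxo (1304 genes). In Doxo-NMN vs. Ctrl it called 6 higher (487 genes), the sixth being *Ngp* (adjusted p = 0.0253). After division of acute counts by 2, 6 members passed the filter. Of these, 6 were called higher in Doxo vs. Ctrl (1824 of 13341 genes). In Doxo-NMN vs. Doxo 5 were called lower (1103 genes), and in Doxo-NMN vs. Ctrl 5 were called higher (396 genes). Replicate numbers were shared by the groups without marking a common litter or batch. With the number as a block, 7 members were called higher in acute Doxo vs. Ctrl (1963 of 14240 genes). In acute Doxo-NMN vs. Doxo 5 were called lower (1135 genes), and in Doxo-NMN vs. Ctrl 5 were called higher (423 genes). In the chronic comparisons 0 were called, and *S100a9* in Doxo-NMN vs. Doxo was at 0.11. The acute calls lost were *Csf3r* in Doxo vs. Ctrl (0.53, adjusted p = 0.0976, edgeR) and *S100a9* (-0.77, adjusted p = 0.183) and *Retnlg* (-0.68, adjusted p = 0.216) in Doxo-NMN vs. Doxo. Same-numbered hearts correlated at -0.624 to 0.584 in the acute and -0.255 to 0.409 in the chronic pairs, and at most 2 of 13 acute and 1 of 5 or 6 chronic hearts correlated best with their own number. *S100a8* had 1 to 6 counts in a chronic Ctrl heart and *Lcn2* 19 to 243 counts in a chronic Doxo heart, and whether depth bears on the lack of chronic calls was not tested.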
